A study of Homo sapiens with 2 samples.

Results

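The MYC and MAX network is a set of transcription factors that pair through a helix-loop-helix and leucine zipper domain. Its 9 genes examined here are MYC, MAX, MXD1, MXD3, MXD4, MXI1, MNT, MLX and MGA. They were chosen by name as members of that network, with earlier results of these data known. Each was read through every probe set annotated to it alone. A probe set is the group of short probes that reads 1 transcript or gene on the array. The 9 genes had 39 of the 45278 probe sets with a single gene symbol, out of 18244 genes so measured.

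MAX is the shared partner of the network. MYC with MAX activates genes that carry the E-box, a short DNA element with the letters CACGTG, and drives growth and division of cells. MXD1, MXD3, MXD4, MXI1 and MNT compete for MAX and recruit the SIN3 and histone deacetylase corepressors to the same element. MLX pairs with MLXIP (MondoA) or MLXIPL (ChREBP), which respond to glucose metabolites, and also with some of the repressors. MGA binds MAX as the scaffold of a variant Polycomb complex.

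RNA came from MDA-MB-231, a breast cancer line that lacks hormone receptors, kept in DMEM with 5.6 mmol/L glucose and harvested 48 h after passage. The control group was the parental line and the other group was a clone of it with stable knockdown of UGT8, the gene of ceramide galactosyltransferase. Each group held 1 Affymetrix array, so precision is limited by their number. The differences below are therefore untested descriptions, with no replicate to check them against. The knockdown cells were 1 clone, so what is particular to that clone and the loss of UGT8 cannot be told apart.

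Values are RMA values, that is, background-corrected, normalized array signals on the log2 scale. A difference is the knockdown value minus the control value on that scale. A gene was read by its brightest probe set, and a floor was set at the median level of all probe sets (log2 6.64), which 10439 genes reached. All 3 UGT8 probe sets read lower on the knockdown array, the brightest going from 8.95 to 6.61, which left 19.7% of the control signal. VIM, CD44, EGFR and CAV1, typical of this line, read between 9.92 and 13.9 on the control array. The 9 probe sets of the hormone receptor genes ESR1 and PGR all lay below the floor, with 6.31 as the highest. The epithelial cadherin gene CDH1, usually silent in this line, read 8.01 and 7.66 in its brighter probe set and 4.87 and 4.73 in the other. ERBB2, not amplified in this line, read 8.56 and 8.73. Of 7 measured markers of leukocytes, endothelium and fibroblasts, 6 lay below the floor at 6.13 or less. PECAM1, an endothelial adhesion molecule, lay past the floor, at 8.46 in the control and 7.37 in the knockdown cells. Its part in the results below was not tested. The 3' minus 5' difference, a reading of RNA quality, was 0.49 and 0.90 for ACTB and 0.18 and 0.19 for GAPDH, and its part was not tested either. Control RNAs added at hybridisation had a median difference of 0.51, whereas the poly-A control RNAs had one of 0.075. Directions below are those of the deposited scale, relative to the bulk of the genes, whose median difference was 0.03.

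The E-box was looked up in promoter windows of RefSeq (GRCh38.p14), which run from 250 bases before to 50 bases after a gene's start. Its letters read the same on both strands. Of the 8 network genes in the table, 3 carried it, namely MLX, MNT and MXD4, against 7.26% of all 35116 windows and 13.1% of the 8688 genes past the floor that the table holds. MAX, MXD1, MXD3, MXI1 and MGA had no match in their windows. The 3 promoters are shown because they hold the element that the network's own proteins bind. They are followed by those of CDK4 and ARRDC4, textbook targets of MYC and of MLXIP with MLX, whose values are given further on. Such a match was not general among these targets. TXNIP, also a target of MLXIP with MLX, had none in either of its windows. Of the 4 targets of MLX with its partners that the table holds, 2 carried it. Only the exact letters CACGTG were looked for, so a window without a match may still hold a variant of the element. Each line holds the 250 bases before the start, 5′ to 3′ on the gene's strand, with the E-box in capitals.
MLX, chr17:42566850-42567099, plus strand: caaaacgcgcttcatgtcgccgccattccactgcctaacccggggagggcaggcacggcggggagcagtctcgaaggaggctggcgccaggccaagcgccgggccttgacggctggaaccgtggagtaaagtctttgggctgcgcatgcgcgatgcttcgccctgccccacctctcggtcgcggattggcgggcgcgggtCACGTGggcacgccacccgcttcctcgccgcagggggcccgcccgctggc
MNT, chr17:2401061-2401310, minus strand: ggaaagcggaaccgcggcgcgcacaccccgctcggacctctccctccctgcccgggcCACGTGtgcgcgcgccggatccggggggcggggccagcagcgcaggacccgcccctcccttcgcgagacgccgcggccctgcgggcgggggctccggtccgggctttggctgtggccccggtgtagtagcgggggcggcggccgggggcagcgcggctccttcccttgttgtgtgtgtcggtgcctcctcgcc
MXD4, chr4:2262110-2262359, minus strand: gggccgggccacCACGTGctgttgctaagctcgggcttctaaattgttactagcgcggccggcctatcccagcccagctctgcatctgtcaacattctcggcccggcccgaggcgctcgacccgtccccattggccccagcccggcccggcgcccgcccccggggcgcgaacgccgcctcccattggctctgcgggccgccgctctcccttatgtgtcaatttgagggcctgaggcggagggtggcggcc
CDK4, chr12:57752311-57752560, minus strand: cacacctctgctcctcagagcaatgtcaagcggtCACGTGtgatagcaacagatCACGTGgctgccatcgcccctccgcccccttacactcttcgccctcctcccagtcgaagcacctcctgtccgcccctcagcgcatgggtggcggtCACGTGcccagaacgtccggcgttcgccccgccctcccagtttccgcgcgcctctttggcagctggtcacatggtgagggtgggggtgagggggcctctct
ARRDC4, chr15:97960453-97960702, plus strand: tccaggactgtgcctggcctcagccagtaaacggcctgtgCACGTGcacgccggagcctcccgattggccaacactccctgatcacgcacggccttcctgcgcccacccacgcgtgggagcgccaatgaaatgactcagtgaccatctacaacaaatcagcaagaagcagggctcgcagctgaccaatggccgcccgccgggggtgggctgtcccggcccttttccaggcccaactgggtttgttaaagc

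The E-box of MLX began 50 bases before the start, that of MNT 193 bases and that of MXD4 238 bases before it. CDK4 held 3 copies, which began 216, 196 and 101 bases before the start. A match describes the letters of these windows and does not show that a factor is bound there.

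The network's differences were small and lay on both sides of 0. By brightest probe set, MLX (0.39), MAX (0.31), MYC (0.17) and MGA (0.03) read higher on the knockdown array. MXI1 (-0.46), MXD1 (-0.38), MNT (-0.30), MXD4 (-0.17) and MXD3 (-0.02) read lower, so that the 5 genes of the MXD, MXI1 and MNT repressors all lay below 0, as did 45.8% of all genes past the floor. None of the 9 genes reached 1.5-fold in either direction, against 4.96% of all genes past the floor that were higher and 6.74% that were lower by that much. At a lower threshold, a difference of 0.32 or more on the log2 scale, MLX was higher (18.0% of all genes) and MXI1 and MXD1 were lower (16.1% of all genes). MAX, MXD3, MXD4, MNT and MGA each had probe sets of both signs, which for MAX, MXD3 and MGA involved probe sets below the floor. In all, 4 of the 9 genes lay above 0, against 53.5% of all genes. The median of the 9 differences was -0.02. Centred on the hybridisation controls, all 9 lay below 0, as did 92.9% of all genes past the floor. On that scale MXD1, MXD4, MXI1 and MNT, 4 of the 9, were lower by at least 1.5-fold, against 37.1% of all genes.

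**Figure D1:**
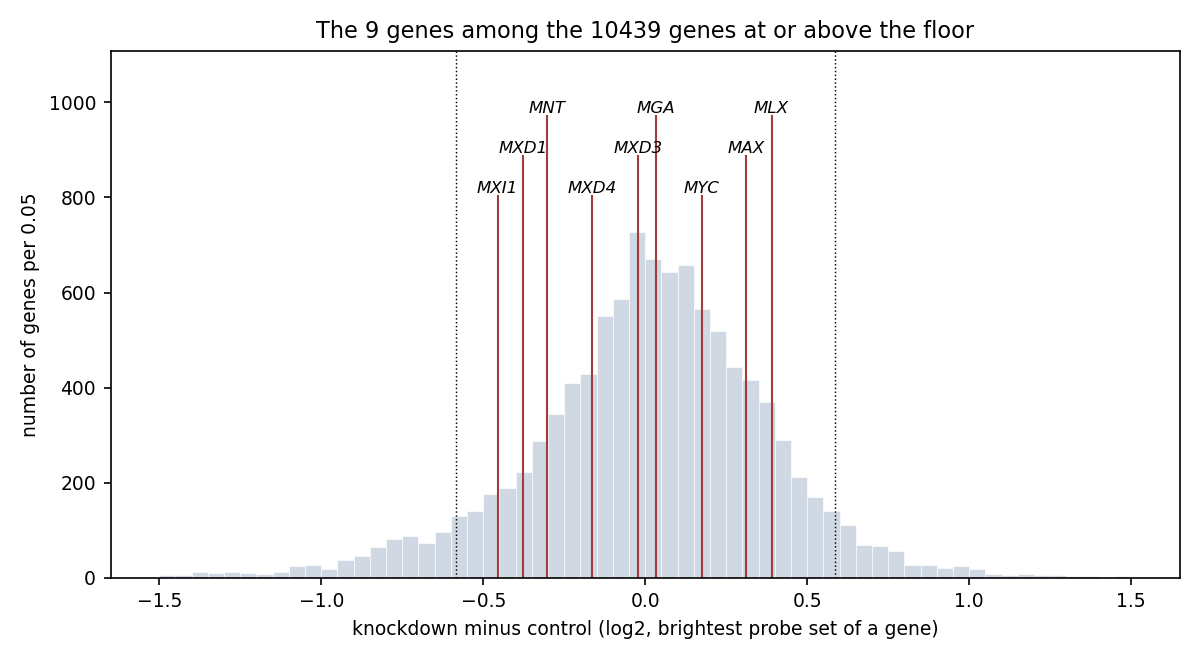
Histogram of the knockdown minus control difference (log2) of the 10439 genes at or above the floor, in bins of 0.05, with the 9 network genes as red lines and 1.5-fold as dotted lines. The 47 genes beyond 1.5 on the log2 scale are not drawn. On this deposited scale MXI1 (-0.46) is leftmost and MLX (0.39) rightmost of the 9, all inside 1.5-fold; centred on the hybridisation controls all 9 would lie below 0.

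Distances between network genes do not move with such a shared shift of the scale. The MYC difference exceeded that of MXI1 by 0.63, or 1.55-fold, and that of MXD1 by 0.55. The MAX difference exceeded that of MXI1 by 0.77, or 1.70-fold, and that of MXD1 by 0.69. By brightest probe set, MYC and MAX thus read higher relative to MXI1 and MXD1 on these arrays. MXI1 and MXD1 had the lowest differences of the 9 genes, so distances to them are the largest that MYC and MAX show in the network. How often any pair of genes past the floor lies as far apart was not counted. The MYC difference exceeded that of MNT by 0.48 in the brighter MNT probe set. The other MNT probe set, also past the floor, read 0.22, above that of MYC (0.17), so this distance has no settled sign. MXD4 (-0.17) and MXD3 (-0.02) were less low than MXI1 and MXD1. The 8 MAX probe sets past the floor lay between 0.28 and 0.59, and the 4 of MXI1 past the floor between -0.50 and -0.38. Below the floor, MAX probe sets reached down to -0.14 and that of MXI1 read -0.20. Probe sets of a gene read the same pair of arrays, so they are not replicates.

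MYC encodes the activator of the network, an oncoprotein with a short-lived mRNA. It was read by a single probe set, which gave 11.3 for the control and 11.5 for the knockdown cells. The knockdown array thus read 113% of the control signal. Of all genes past the floor, 32.0% had a difference at least as high. With 1 probe set there is no second reading of MYC on these arrays, and centring on the hybridisation controls took its difference to -0.34.

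MAX encodes the obligate partner through which MYC binds DNA, and the repressors pair with it too. It had 12 probe sets, of which 8 lay past the floor, and all 8 read higher on the knockdown array. The brightest went from 10.3 to 10.6. Over the 8, control values ran from 6.93 to 10.3 and knockdown values from 7.20 to 10.6. Their differences lay between 0.28 and 0.59 and had a mean of 0.41 ± 0.11, an SD among probe sets within 1 pair of arrays that is no replicate error. The brightest probe set was among the lower of these readings. The largest was the one probe set of the network past 1.5-fold, which went from 8.08 to 8.67. Of the 4 below the floor, 2 read higher and 2 lower, between -0.14 and 0.17. Several of the 12 carry marks for shared sequence, so they are not all independent readings. Of all genes past the floor, 18.8% had a difference at least as high as the brightest MAX probe set. By its brightest probe set or by either average, MAX stayed above 0 under every setting tried except centring on the hybridisation controls, where it lay at -0.20.

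MLX encodes the partner of MondoA and ChREBP. All 6 of its probe sets read higher on the knockdown array, 5 of them past the floor. The brightest went from 9.84 to 10.2, and the knockdown array read 131% of the control signal. The 5 past the floor formed a pair near 0.14 and 3 between 0.36 and 0.39, and averaged 0.29 ± 0.13 (SD over probe sets). The dim one went from 5.99 to 6.48, the largest MLX difference (0.49). Of all genes past the floor, 13.0% had a difference at least as high as the brightest MLX probe set. Centred on the hybridisation controls, that probe set lay at -0.12.

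MXI1 encodes a MAX-binding repressor that antagonises MYC. All 5 of its probe sets read lower on the knockdown array, and no other of the 9 genes had more than 4 that did. The brightest went from 10.8 to 10.3, which left 72.9% of the control signal. The other 3 past the floor went from 8.83 to 8.45, from 7.90 to 7.40 and from 7.44 to 6.99. These 4 averaged -0.45 ± 0.05 (SD over probe sets). The median SD was 0.08 over the 6067 genes that had 2 or more such probe sets. The brightest MXI1 probe set and the next one carry marks for shared sequence, so the 4 are not all independent readings. The dim one went from 5.85 to 5.65. Of all genes past the floor, 10.5% had a difference at least as low as the brightest MXI1 probe set. MXI1 stayed below 0 under every setting tried, between -0.97 and -0.40.

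MXD1 encodes a repressor that is typically raised as cells differentiate. Both of its probe sets read lower on the knockdown array. The brighter went from 7.97 to 7.59, which left 77.0% of the control signal, and the other, below the floor, from 4.37 to 4.15. A difference at least as low was found in 13.3% of all genes past the floor. MXD1 was below 0 under every setting tried.

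MXD3 and MXD4 encode further repressors of the MXD family. The brightest MXD3 probe set read 7.88 and 7.86, and the 2 dim ones read slightly higher on the knockdown array (0.07 and 0.05). The mean over all MXD3 probe sets was 0.03, so its direction depended on which were read. MXD4 had 4 probe sets past the floor, of which 3 read lower and 1 higher, between -0.17 and 0.03. Their mean was -0.06 ± 0.08 (SD over probe sets). For neither gene did the arrays differ by more than 0.17 in any probe set.

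MNT encodes a large repressor that is present in most cells and takes MAX or MLX as partner. Its 2 probe sets, both past the floor, went opposite ways. The brighter went from 8.49 to 8.19 (-0.30) and the other from 6.93 to 7.15 (0.22). Their mean was -0.04 ± 0.37 (SD over probe sets), so these arrays give MNT no direction.

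MGA encodes the giant scaffold that joins MAX to the variant Polycomb complex PRC1.6. Its 2 probe sets past the floor read 8.73 and 8.76, and 8.12 and 8.28. The dim one read 5.75 and 5.72. The differences ran from -0.02 to 0.16, and the brightest turned to -0.04 when centred on the poly-A control RNAs and to -0.48 when centred on the hybridisation controls.

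**Figure D2:**
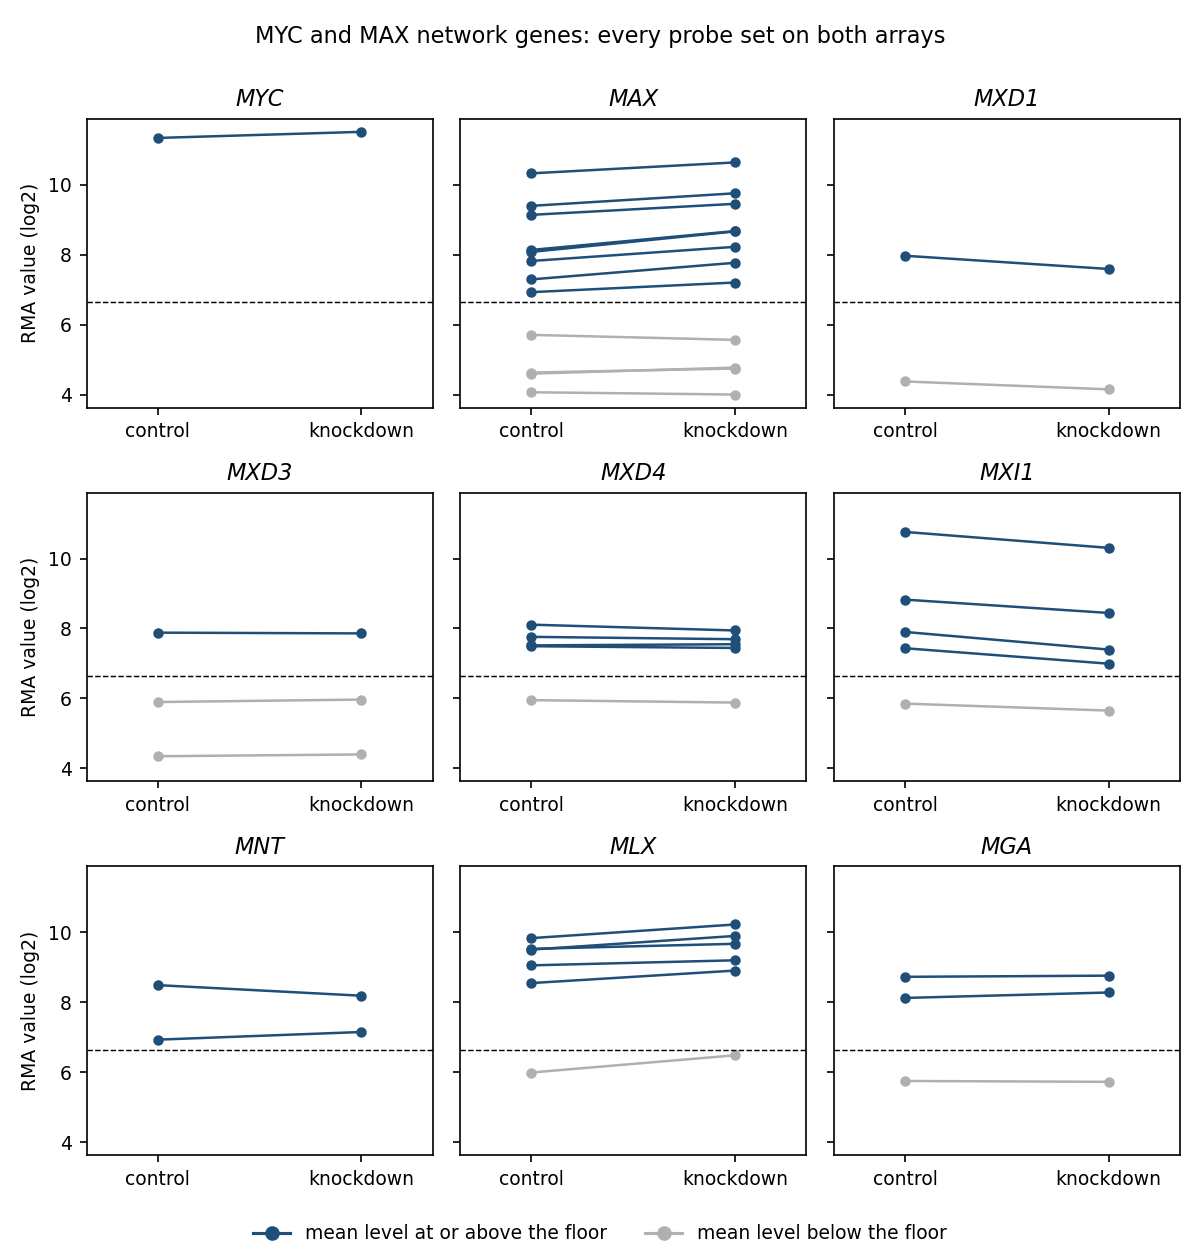
RMA values (log2) of every probe set of the 9 genes on the control and knockdown arrays, 1 line per probe set, blue where the mean level reached the floor (dashed, 6.64) and grey below it. On this scale, where centring on the hybridisation controls would lower the knockdown side by 0.51 and turn most rising lines down, all blue MAX and MLX lines go up, all MXI1 and MXD1 lines go down, and those of MNT cross in direction.

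Of the 39 probe sets, 28 lay past the floor. By gene, all past-floor probe sets pointed one way in 7 of 9, with MNT and MXD4 as the exceptions. In MYC, MXD1 and MXD3 this rests on 1 probe set past the floor. Over all 39, 23 read higher and 16 lower, a count to which MAX alone gave 10 of the higher ones. The same shares over all genes and all probe sets were not counted, so neither count sets the network apart.

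**Figure D3:**
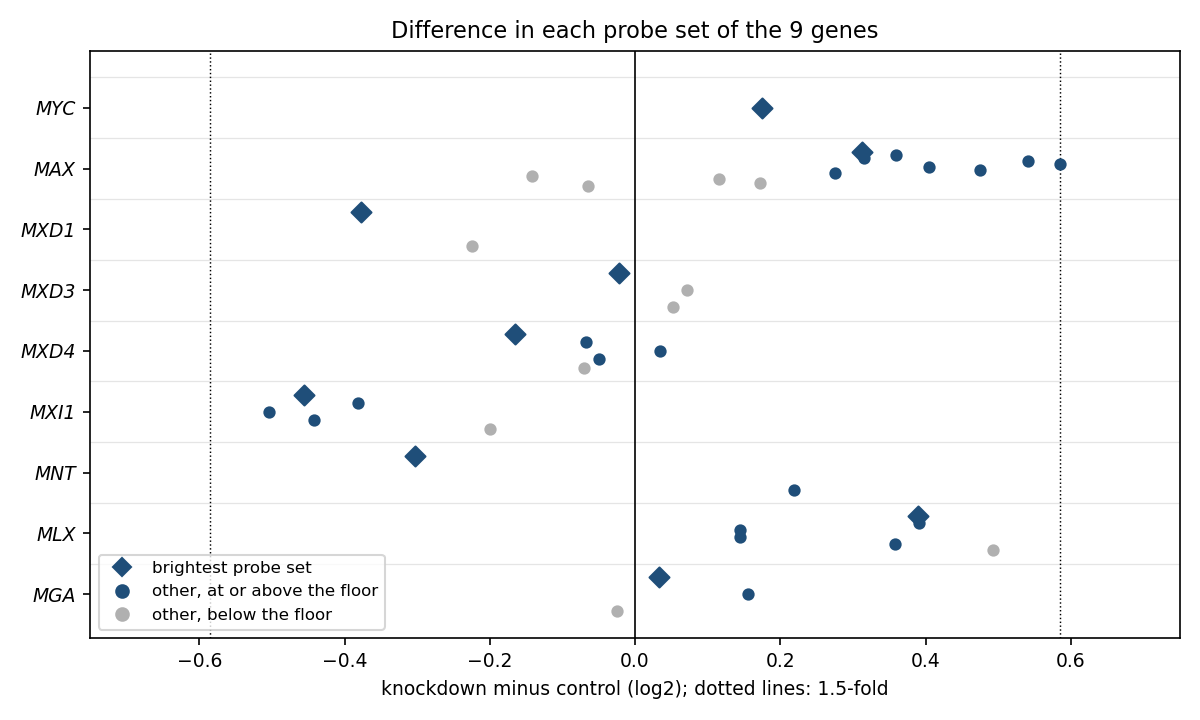
Knockdown minus control difference (log2) of each probe set by gene; diamonds mark the brightest probe set, blue circles others at or above the floor and grey circles those below it, and dotted lines mark 1.5-fold. The blue MAX points lie between 0.28 and 0.59 and those of MXI1 between -0.50 and -0.38; a shift to the hybridisation controls lowers all points by 0.51 and leaves their distances.

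Relatives of the network outside the 9 genes were mixed. Of 10 such genes, 7 lay past the floor, with 3 higher, 3 lower and a median of 0.00. MLXIP, the MondoA gene, was higher by 0.39 in its brightest probe set (9.53 and 9.92) and by 0.23 in the other past the floor. The brightest carries a mark for shared sequence, and the dim MLXIP probe sets differed by -0.06 and 0.11. Past the floor MLXIP thus read higher on the deposited scale, as did its partner MLX. MLXIPL, the ChREBP gene, read 7.56 on both arrays in the brightest of 4 probe sets, and the other 3 were lower by between 0.12 and 0.16. The MYC paralog MYCL was lower (7.10 and 6.81). The paralog MYCN lay below the floor in all 4 of its probe sets. A pair of these read 5.33 and 5.33 in control cells and 4.0 and 3.92 in knockdown cells, and the other pair differed by -0.11 and 0.11.

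Genes that act on the MYC protein had a median of 0.09 over 11 of 13, with 6 higher and 5 lower, against 53.5% of all genes above 0. FBXW7, the ubiquitin ligase subunit that targets MYC for breakdown, was lower in all 3 of its probe sets. Its brightest went from 8.94 to 8.23 (-0.72), and the others differed by -0.65 and -0.57. CIP2A, an inhibitor of the phosphatase that destabilises MYC, was higher in both of its probe sets, with 7.43 and 8.20 in the brighter (0.77). No other gene of the list past the floor reached 1.5-fold, so that 1 of 11 was higher (4.96% of all genes) and 1 of 11 lower (6.74% of all genes) by that much. Centred on the hybridisation controls the list's median was -0.43, and that of all genes past the floor was -0.48.

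The cofactors of MYC, of the MXD proteins and of MGA lay on both sides of 0. None of the 16 MYC coactivators past the floor reached 1.5-fold, and 8 were higher and 8 lower (median -0.003, range -0.28 to 0.40). Among all genes 4.96% were higher and 6.74% lower by at least 1.5-fold, and 53.5% lay above 0. The 11 corepressors of the MXD proteins past the floor had 7 higher and 4 lower (median 0.12, range -0.47 to 0.53), and none reached 1.5-fold. Of the 8 partners of MGA, 5 were higher and 3 lower (median 0.20), with 1 higher and 1 lower by at least 1.5-fold. TFDP1, the dimer partner of E2F factors, was higher (10.4 and 11.1, 0.75) in all 4 of its probe sets past the floor. YAF2, a subunit that links the Polycomb ligase to DNA-bound proteins, was lower (8.0 and 7.40, -0.60), as it was in all 5 of its probe sets. Centred on the hybridisation controls these 3 medians were -0.52, -0.39 and -0.32.

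Textbook targets of MYC lay mostly on opposite sides of 0 on the deposited scale. Of 42 genes that MYC with MAX activates, 39 lay past the floor, and 33 of these were higher and 6 lower, against 53.5% above 0 among all genes. Their median was 0.30, with 10 higher by at least 1.5-fold (4.96% of all genes) and none lower. Of the 10 genes that MYC represses, 8 lay past the floor, and all 8 were lower, against 45.8% below 0 among all genes. Their median was -0.29, and the differences ran from -0.95 to -0.07. NDRG1, a stress and differentiation gene, was the one of these past 1.5-fold (6.74% of all genes). The medians of both lists lay 0.59 apart, a distance that a shared shift of the scale does not change. Centred on the hybridisation controls they were -0.21 and -0.80. Many activated targets also serve cell division and ribosome synthesis, so the list is not specific to MYC. These counts are descriptions of 1 pair of arrays, and no test compared the lists with other genes. All lists used here were chosen with earlier results of these data known, so they are no independent reading.

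Among activated targets, CDC25A, the phosphatase that activates cyclin-dependent kinases, went from 7.12 to 8.92 (1.80). ODC1, the first enzyme of polyamine synthesis, went from 10.06 to 11.03 (0.97). MRTO4, a ribosome assembly factor, went from 7.96 to 8.92 (0.96), although its dim probe set differed by 0.19. NOP56 of the nucleolar methylation complex was higher by 0.76, the polyamine enzyme gene SRM by 0.75 and the prohibitin gene PHB1 by 0.69, each in all of its probe sets. CDK4, the cyclin D-dependent kinase, was higher in all 4 probe sets, with differences between 0.56 and 0.69. The pyrimidine synthesis gene CAD (0.35) and the nucleolin gene NCL (0.26) were higher but did not reach 1.5-fold. NDRG1 was lower in all 6 of its probe sets, from -1.495 to -0.95. CDKN1A, the cell-cycle inhibitor p21 and a classical repressed target, read 11.2 and 11.1 (-0.07).

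The E-box was found in the windows of 19 of the 35 activated targets that the promoter table holds, or 54.3%. Among the 8688 genes past the floor that it holds, the share was 13.1%. The targets were listed from textbook knowledge of MYC, so their share is no independent reading. Of those past the floor, the 16 with it had a median difference of 0.27 and the 16 without it 0.31. Over all genes past the floor, the 1135 with an E-box had a median of 0.06 and 56.7% above 0. The 7553 without one had a median of 0.03 and 53.4% above 0. The quartiles of both sets nearly coincided, from -0.16 to 0.28 with the element and from -0.20 to 0.24 without it.

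Targets of MLX with its glucose-sensing partners read lower, while MLX and MLXIP read higher on the deposited scale. Of 6 such genes, 5 lay past the floor and all 5 were lower, against 45.8% below 0 among all genes. Their median was -0.78, and 3 were lower by at least 1.5-fold (6.74% of all genes). The fall was not uniform, as the differences ran from -1.61 to -0.07. ARRDC4, an arrestin-domain protein that limits glucose uptake, went from 9.33 to 7.72 (-1.61), and its other probe sets differed by -1.45 and -1.65. TXNIP, the related thioredoxin-interacting protein, was lower in all 5 probe sets, from -1.14 to -0.81, with 12.8 and 12.0 in the brightest. The fatty acid synthase gene FASN went from 10.0 to 9.24 (-0.78). This list was below 0 under every setting tried, with medians between -1.29 and -0.47. With 5 genes, chosen with earlier results of these data known, it is a description of those genes.

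**Figure D4:**
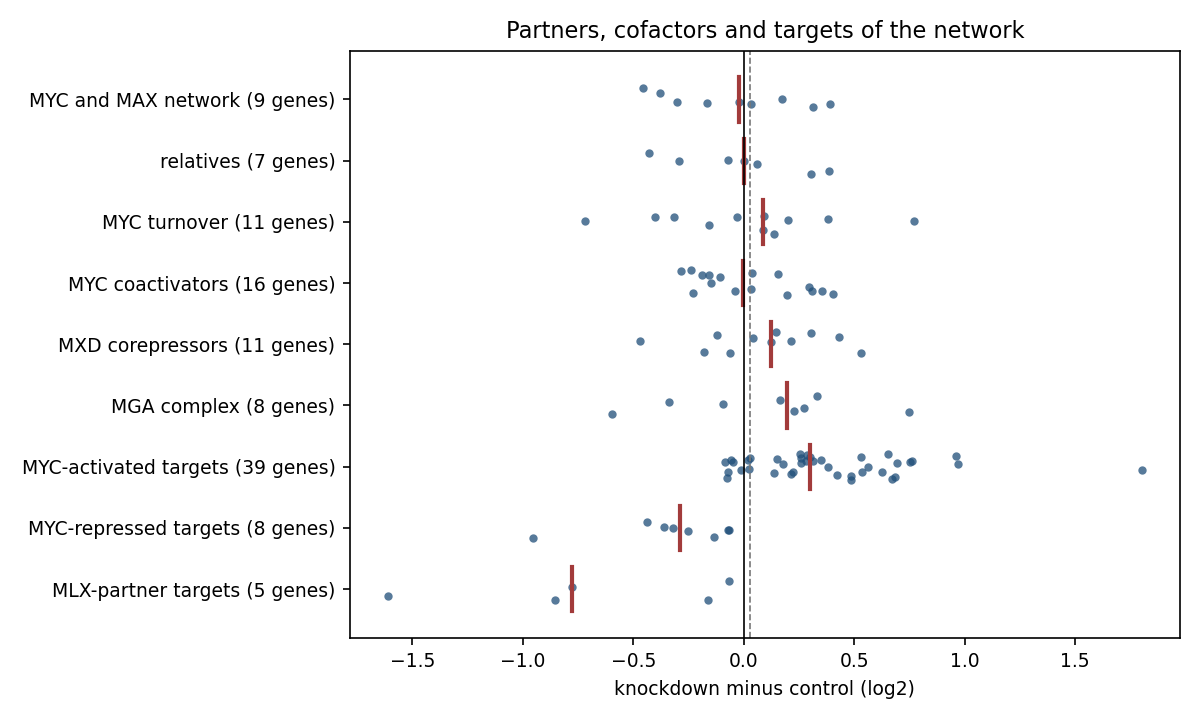
Knockdown minus control difference (log2, brightest probe set) of each gene past the floor in the network and in 8 lists of its relatives, cofactors and targets; red bars are medians, the dashed line the median of all genes (0.03), and vertical scatter has no meaning. Activated targets (median 0.30) lie mostly right of 0, and repressed targets (-0.29) and targets of MLX partners (-0.78) left of it; centred on the hybridisation controls the activated median would be -0.21.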

How the data were processed

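Values were deposited by the authors on the log2 scale after RMA, per the submitters' processing notes. RMA corrects background, normalizes between arrays and summarises each probe set. The software and build behind them: not given in the sources used here. Sorted values of both arrays differed by at most 0.0727, so a shift common to most transcripts is not visible. Of 49495 probe sets, 102 were controls, 1333 had several symbols and 2782 had none in the platform annotation table used. Symbols were updated through RefSeq (GRCh38.p14), and none of the probe sets with several symbols held a network gene.

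Groups followed the genotype labels. With 1 array per group, differences were described without a test. Calls were counted at 1.5-fold and at a log2 difference of 0.32. Named were the 9 genes, UGT8, and, of each list, up to 6 genes past the floor by at least 1.5-fold, plus TXNIP, ARRDC4, MYCN, MYCL, MLXIP, MLXIPL, CDK4, ODC1, CAD, NCL and CDKN1A. Marker genes were named to check the labelled line. The network genes and the lists, put together from textbook knowledge, were chosen with earlier results of these data known. Some list genes are not reported here. Alternatives changed the reading of probe sets, the floor, the fold threshold and the centring. Python 3.11.15, pandas 2.3.3 and statsmodels 0.14.6 (loess, fraction 0.3) were used.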

Additional observations from a re-analysis of the deposited data

How the results depend on the processing

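Of 114 comparisons of the counts and list medians with an alternative, 92 stayed within 1.5 times (counts) or within 0.08 on the log2 scale (medians, the median SD over probe sets of a gene), and 22 moved. Part of this tally was fixed in advance. Every network gene lay past the main floor, so a lower floor or none could not change their counts. Because no network gene reached 1.5-fold, a higher threshold could give none either. Centring on the median of genes past the floor lowered every list median by 0.029, inside the limit of 0.083. Centring on the poly-A controls lowered each by 0.075, also inside it. The hybridisation shift lay outside it for every list median. Of the 22 that moved, 10 came from centring on the hybridisation controls, which lowers every difference by 0.51. It gave 0 network genes above 0, 4 lower by at least 1.5-fold, and medians of -0.51 (relatives), -0.43 (MYC turnover), -0.52 (coactivators), -0.39 (corepressors), -0.32 (MGA partners), -0.21 (activated targets), -0.80 (repressed targets) and -1.29 (targets of MLX partners). A threshold of 0.32 (log2) gave 1 higher and 2 lower network genes. The relatives' median was -0.11 with the mean over all probe sets or over those past the floor, -0.29 without probe sets marked for shared sequence and 0.18 when the floor was raised to the 75th percentile. That floor gave 0.10 for coactivators, 0.089 for MGA partners and -0.47 for targets of MLX partners. The latter median was -0.96 without marked probe sets, and -0.49 without a floor or when it was set to the 25th percentile. The cause of these moves was not tested. Single network genes changed sign in 6 cases: MYC, MAX, MLX and MGA on the hybridisation scale, MGA (-0.04) on the poly-A scale, and MXD3 (0.03) when all probe sets were averaged. MNT was -0.04 and MXD4 -0.06 after averaging over all probe sets. Signal over background limits the dim probe sets, and 11 of the 39 lay below the floor.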
